A study of Mus musculus with 30 samples.

Results

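The genes described are 9 scavenger and endocytic receptors or related proteins that can bind oligonucleotides, polymers or other large cargo: *Msr1*, *Marco*, *Stab1*, *Stab2*, *Scarb1*, *Colec12*, *Lrp1*, *Clec7a* and *Cd5l*. They were chosen by name, and all 9 were found among the 56748 genes of the count table. Poly(A)-selected RNA was sequenced from the quadriceps of 30 mice. The controls were 5 untreated wild-type FVB/N mice (WT) and 8 nontreated HSA-LR mice (NT). HSA-LR mice, a model of myotonic dystrophy type 1 (DM1), are homozygous for a human skeletal actin transgene with an expanded CTG repeat. The actin promoter drives it in skeletal muscle fibres, so the macrophages and endothelial cells of these mice are not made to express the repeat. Every treated mouse was also HSA-LR. The treatments, injected into the tail vein of 8-week-old mice, were as follows. pacDNA-L9 was given to 4 mice at 5.3 mg/kg, to 3 at a total of 21.2 mg/kg and to another 3 at 42.4 mg/kg in all. Free L9 went to 3 mice and pacDNA-Scr to 2, both at 5.3 mg/kg, and Brush to 2 mice at 40 nmol. The study describes Brush as equimolar to pacDNA-L9 without naming the dose it matches. It gives the mg/kg of pacDNA-L9 as oligonucleotide, so mice at the higher doses also received more polymer. L9 is a fully locked nucleic acid antisense oligonucleotide against the CUG repeat, with phosphodiester rather than phosphorothioate linkages. pacDNA is its conjugate with a bottlebrush polyethylene glycol polymer, and the study gives pacDNA-L9 a near-neutral surface charge. Scr is a scrambled oligonucleotide on the same polymer, and Brush is the polymer alone. The 21.2 and 42.4 mg/kg doses were reached by repeated injections, more of them at 42.4, so dose and number of injections cannot be told apart. Muscle was taken 2 weeks after the last injection.

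Scavenger receptors are a loose family of surface proteins that share a taste for polyanionic and modified ligands rather than a common fold. Macrophages and the endothelium that lines liver sinusoids carry most of them, and they clear modified lipoproteins, matrix fragments, nucleic acids and particles from blood and tissue. Cargo taken up this way enters endosomes, from which little of an oligonucleotide escapes. Skeletal muscle fibres are not known as a rich source of these receptors, and the macrophages, vessels and connective tissue between the fibres are known to carry them.

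Each library held 13605309 to 26956558 counts on genes, with a median of 20141850.5. The libraries came in a first deposited set of 24 and a second of 6 (2 NT, 2 at 5.3 mg/kg, 1 at 21.2 mg/kg and 1 free L9), and 5 of the second set list all 37 mitochondrial genes at 0. The exception in the second set is free L9 replicate C, which lists mitochondrial counts. It also has the lowest total of all libraries, 13605309 counts, and the lowest TMM normalization factor, 0.823. All 3 libraries at 42.4 mg/kg are in the first set, are female by their counts, and belong to 9 libraries that the count table names by group and running number. Free L9 replicates A and B, the 2 free L9 libraries of the first set, also belong to these 9, as does 1 NT library. Free L9 replicate B held 14485 genes with counts, fewer than any other library. The tissue label was met by its markers: 8 muscle fibre genes summed to 106163 to 180112 CPM per library, and 5 liver genes to at most 1.10 CPM. Levels are given as CPM, read counts scaled to the TMM-normalized library size. Genes were compared with each other only as CPM per kb of exon.

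The 9 genes fell into 3 ranges of abundance. Over the 30 libraries *Lrp1* had the highest level per length, 5.00 CPM per kb, followed by *Stab1* at 1.97, *Scarb1* at 1.91 and *Colec12* at 1.03 CPM per kb. *Clec7a* (0.0941), *Msr1* (0.0851) and *Stab2* (0.0735 CPM per kb) lay an order of magnitude lower. *Cd5l* (0.0192) and *Marco* (0.00542 CPM per kb) were close to absent. *Marco* had 6 counts in all and was at 0 in 24 libraries, and *Cd5l* had 24 counts and was at 0 in 16. These 2 genes did not pass the filter on low counts and were not tested, so 7 of the 9 were. A count of 0 allows up to 3 counts, which is 0.106 to 0.268 CPM depending on the library and covers counting error only.

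**Figure D1:**
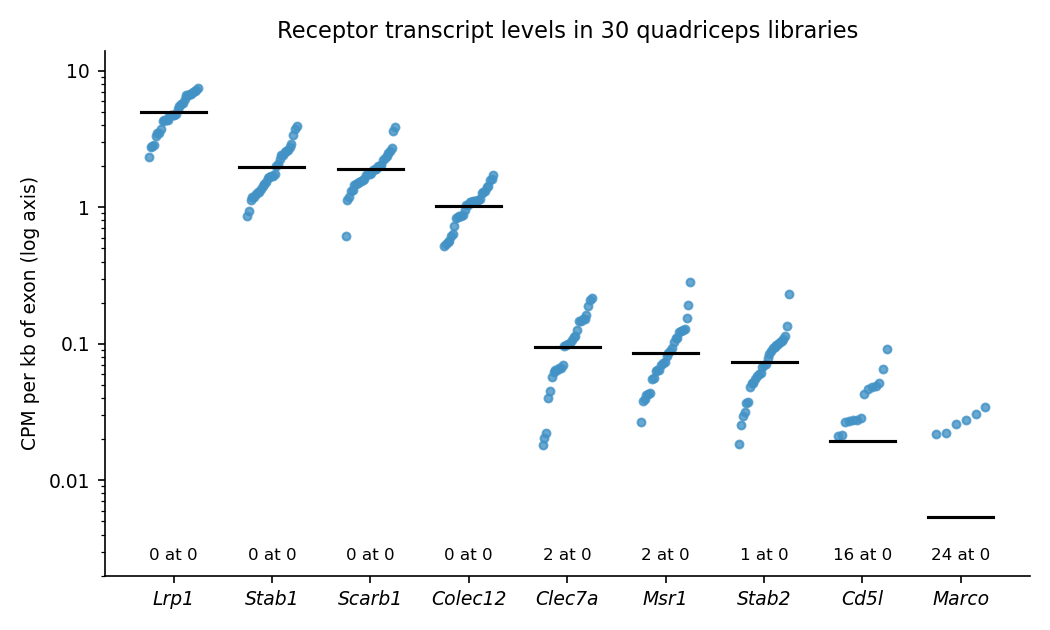
Level of each receptor gene in CPM per kb of exon on a log axis, with 1 point per library, the mean over 30 libraries as a bar, and the number of libraries at 0 written under each gene. *Lrp1*, *Stab1*, *Scarb1* and *Colec12* were detected in every library, whereas *Marco* was at 0 in 24 and *Cd5l* in 16.

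Positions are on GRCm39, the build the authors mapped to, with GENCODE vM39 gene models. *Stab1* (ENSMUSG00000042286) lies on the minus strand at chr14:30860970-30890598 and *Lrp1* (ENSMUSG00000040249) on the minus strand at chr10:127374012-127457017. The others are *Msr1* (ENSMUSG00000025044, chr8:40034726-40095714, minus strand), *Marco* (ENSMUSG00000026390, chr1:120402267-120432753, minus), *Stab2* (ENSMUSG00000035459, chr10:86675054-86843889, minus), *Scarb1* (ENSMUSG00000037936, chr5:125353547-125418176, minus), *Clec7a* (ENSMUSG00000079293, chr6:129438554-129449742, minus), *Cd5l* (ENSMUSG00000015854, chr3:87265182-87278380, plus) and *Colec12* (ENSMUSG00000036103). Counts are per gene, summed over its exons, and *Lrp1* has 20494 and *Stab1* 10288 bases of exon. Exons of other genes on the opposite strand overlie 5.492% of the exon bases of *Stab1* and 6.202% of those of *Lrp1*, and 3.864% and 3.779% for *Stab2* and *Scarb1*. Whether the counting used strand is not given in the sources used here, so reads from those stretches cannot be told apart from reads of the partner genes.

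The promoters of *Stab1* and *Lrp1*, the members whose levels differed most clearly between treated and NT mice, are shown because the pair moved together over the libraries. Both runs are RefSeq sequence of build GRCm38.p6, minus strand, printed 5′ to 3′ from 250 bases before to 50 bases after the start site, at chr14:31168592-31168891 for *Stab1* and chr10:127621099-127621398 for *Lrp1*. Each had 1 exact match in GRCm39, at chr14:30890549-30890848 and chr10:127456968-127457267, and the start site was the first base of the GENCODE gene in both. Capitals mark GAGGAA, the core bound by the myeloid ETS factor PU.1, and GGGCGG, the GC box bound by Sp1, on either strand.
Stab1: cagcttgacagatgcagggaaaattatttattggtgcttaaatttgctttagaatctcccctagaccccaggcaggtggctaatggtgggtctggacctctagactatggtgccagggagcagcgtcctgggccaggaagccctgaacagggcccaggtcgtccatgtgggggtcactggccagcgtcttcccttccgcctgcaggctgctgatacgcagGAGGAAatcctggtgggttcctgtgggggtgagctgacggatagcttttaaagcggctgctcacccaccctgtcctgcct
Lrp1: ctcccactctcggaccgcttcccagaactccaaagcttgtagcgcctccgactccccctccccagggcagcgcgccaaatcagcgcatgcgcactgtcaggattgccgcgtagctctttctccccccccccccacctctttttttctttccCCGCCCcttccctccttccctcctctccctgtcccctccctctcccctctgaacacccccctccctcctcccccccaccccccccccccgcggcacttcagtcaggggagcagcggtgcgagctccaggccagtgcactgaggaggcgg
The *Stab1* window is 57.3% G or C and held GAGGAA once, starting at position -30, with no GC box. The *Lrp1* window is 67.7% G or C and held the GC box once, on the opposite strand at position -99, with no GAGGAA. Promoters were at hand for 6 of the 9 members, and GAGGAA was found in those of *Marco*, *Cd5l*, *Clec7a* and *Stab1* but not of *Stab2* and *Lrp1*. For scale, 28.3% of the 32851 RefSeq promoters of this length hold GAGGAA and 35.7% hold GGGCGG. The core of the E-box, CACGTG, is in 7.15% of them and in none of the 6, and the TATA box, TATAAA, is in 13.6% and in *Clec7a* alone of the 6. These are matches of letters, not measured binding. No promoter was matched for *Msr1*, *Scarb1* and *Colec12*.

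*Stab1* rose at the highest dose of pacDNA-L9, and its mean lay above that of NT in every group given the polymer. *Stab1* encodes stabilin-1, a class H scavenger receptor of tissue macrophages and sinusoidal endothelium that clears matrix fragments and modified lipoproteins. In the 3 mice at 42.4 mg/kg *Stab1* stood at 28.4, 29.8 and 25.9 CPM. In the 8 NT mice the lowest library was at 8.81, the median at 13.1 and the highest at 21.5 CPM. Every library at 42.4 mg/kg lay above every NT library. The share of all genes that separate in this way was not counted. This and the other separations of groups given below are descriptions only. The group means were 28.0 ± 1.95 (SD, n = 3) and 13.9 ± 3.73 CPM (SD, n = 8), a log2 fold change of 1.01 ± 0.25 (SE; adjusted p = 0.0260, edgeR quasi-likelihood test). Of the 7 members tested *Stab1* was the single one past the threshold of 0.05 in this comparison, where 2.57% of all 17518 genes were called (1.92% higher and 0.651% lower), and DESeq2 called the same gene, with 7.16% of all genes. The summed macrophage markers were higher in the same 3 mice, and in bulk muscle the number of cells of a type and the RNA per cell cannot be told apart.

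The *Stab1* call rested on all 3 mice. Without replicate A, B or C at 42.4 mg/kg the log2 fold change was 1.00, 0.97 and 1.07, and the adjusted p 0.0837, 0.213 and 0.0628, past the threshold in none. With library size alone in place of TMM the fold change was 0.99 and the adjusted p 0.0533. In the first deposited set alone it was 0.94 (adjusted p = 0.0245, with 2.7% of all genes called), and with the naming style of the libraries as a covariate 1.35 (adjusted p = 0.0382).

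At the lower doses *Stab1* levels differed between the deposited sets. At 5.3 mg/kg the libraries of the first set stood at 34.8 and 24.7 CPM and those of the second at 13.9 and 17.2 CPM. At 21.2 mg/kg they stood at 27.1 and 38.6 CPM in the first set and 17.9 CPM in the second. The 2 NT libraries of the second set were at 12.9 and 11.6 CPM, so each pacDNA-L9 library of that set was above both, with ratios of means of 1.27 for the lowest dose and 1.46 for 21.2 mg/kg. The 1 free L9 library of that set was above both as well, at a ratio of 1.24. In the first set the ratios to the 6 NT libraries were 2.06 and 2.28, and 1.94 at 42.4 mg/kg. Over both sets the log2 fold change against NT was 0.71 ± 0.24 (SE) at 5.3 mg/kg, with an adjusted p of 1.00, and 1.01 ± 0.25 at 21.2 mg/kg, with an adjusted p of 0.540 (edgeR). Neither passed the threshold.

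Brush and pacDNA-Scr carry the same polymer without an active oligonucleotide. *Stab1* stood at 40.2 and 24.8 CPM in the 2 Brush mice, both above every NT mouse, and at 20.5 and 23.1 CPM in the 2 pacDNA-Scr mice, of which 1 lay above every NT mouse. Against NT the log2 fold change was 1.23 ± 0.29 (SE) for Brush and 0.65 ± 0.30 for pacDNA-Scr, with adjusted p of 0.728 and 1 (edgeR). DESeq2 called *Stab1* for Brush (log2 fold change 1.22, adjusted p = 0.0111, with 1.02% of all genes called). With 2 mice a group, these values are weakly bounded: the 95% interval of the fold ran from 1.58 to 3.47 for Brush and from 1.05 to 2.36 for pacDNA-Scr.

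After free L9 *Stab1* lay within the NT range over both sets, at 12.3, 9.71 and 15.2 CPM, with a log2 fold change of -0.16 ± 0.27 (SE) and an adjusted p of 0.910 (edgeR). WT mice stood at 26.6, 16.9, 17.4, 13.2 and 17.5 CPM, a mean of 18.3 ± 4.95 (SD, n = 5), and overlapped NT. By group mean the order was Brush, 42.4, 21.2 and 5.3 mg/kg of pacDNA-L9, pacDNA-Scr, WT, NT and free L9. Each group's range overlapped that of its neighbour in this order.

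**Figure D2:**
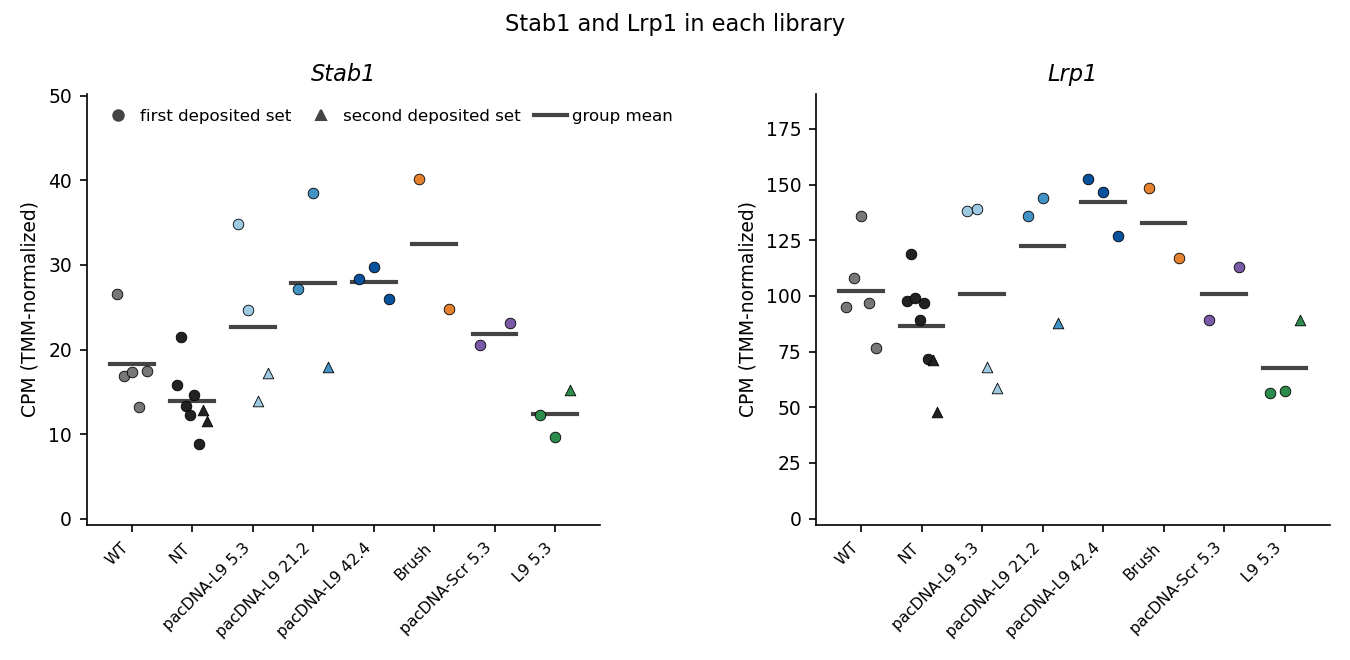
*Stab1* and *Lrp1* in CPM in each library by group, with circles for the first deposited set, triangles for the second and a bar for the group mean. All 3 libraries at 42.4 mg/kg lay above all 8 NT libraries for both genes, and the second-set libraries at 5.3 and 21.2 mg/kg lay below the first-set libraries of the same dose. The share of all genes that separate from NT in this way was not counted.

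*Lrp1* also had its highest group means at 42.4 mg/kg and after Brush, and over both deposited sets it passed the threshold in no comparison. It encodes a large endocytic receptor of the LDL receptor family that takes up apolipoprotein E particles and complexes of proteases with their inhibitors, in macrophages, fibroblasts and vessel walls. At 42.4 mg/kg the libraries stood at 152.7, 146.6 and 126.9 CPM, all above the highest NT library (118.8 CPM; lowest 47.7, median 93.0). The means were 142 ± 13.5 (SD, n = 3) and 86.5 ± 22.0 CPM (SD, n = 8). The log2 fold change was 0.71 ± 0.25 (SE) with an adjusted p of 0.161 (edgeR), so the difference did not pass the threshold. The 95% interval of the fold ran from 1.17 to 2.30.

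At 5.3 mg/kg the *Lrp1* libraries split by deposited set. The first-set libraries at that dose stood at 138.2 and 139.1 CPM, above all 6 NT libraries of their set, and the second-set libraries at 68.1 and 58.5 CPM, between the 2 NT libraries of theirs (71.3 and 47.7 CPM). The ratio of means to NT was 1.45 in the first set and 1.06 in the second. At 21.2 mg/kg *Lrp1* stood at 135.7, 143.9 and, in the second set, 87.7 CPM, with ratios of 1.46 and 1.47. Over both sets the log2 fold change was 0.22 ± 0.23 (SE) at 5.3 and 0.50 ± 0.25 at 21.2 mg/kg, with an adjusted p of 1.00 and 1 (edgeR).

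*Lrp1* was also high after Brush, at 148.6 and 117.1 CPM, with a log2 fold change of 0.62 ± 0.29 (SE) and an adjusted p of 1 (edgeR). It stood at 89.0 and 113 CPM after pacDNA-Scr and at 56.2, 57.2 and 89.2 CPM after free L9, where the third value is the second-set library. WT mice ranged from 76.7 to 135.7 CPM around a median of 96.6. Against NT the log2 fold change of free L9 was -0.36 ± 0.26 (SE), with an adjusted p of 0.699 (edgeR). In the first set alone it was -0.75 and passed (adjusted p = 0.0465, edgeR, where 2.24% of all genes were called), at a ratio of means to NT of 0.594. Both free L9 libraries of the first set are named by group and running number, as is 1 of its NT libraries. In the second set the 1 free L9 library lay the other way, at 89.2 CPM and above both NT libraries of that set, whose mean was 59.5 CPM.

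Macrophage transcripts were higher than in NT at the highest dose, as *Stab1* was. At 42.4 mg/kg all 11 tested macrophage markers of 12 listed were higher than in NT, and 4 passed the threshold: *Lyz2* (lysozyme, log2 fold change 2.47), *Cd68* (a macrophage lysosomal glycoprotein, 2.11), *Laptm5* (1.76) and *Csf1r* (the colony-stimulating factor receptor, 0.90). Over all genes edgeR called 2.57% in this comparison, 1.92% higher and 0.651% lower, and 2294 of 17518 had an unadjusted p under 0.05. The marker lists were chosen with earlier results known. Summed, the 12 markers stood at 190.5 to 283 CPM at 42.4 mg/kg and at 48.2 to 89.1 CPM in NT. They stood at 101.2 to 132 CPM at 5.3 mg/kg, 86.9 to 219 at 21.2 mg/kg, 139 to 146 after Brush, 74.8 to 116 after pacDNA-Scr, 46.8 to 82.6 after free L9 and 37.7 to 61.6 CPM in WT. Between NT and WT the 2 measures went opposite ways: the macrophage markers had a median log2 fold change of 0.27 in NT, with *Cd68* called, and *Stab1* stood at -0.40 without passing. Of 8 markers of resident macrophages 4 passed at 42.4 mg/kg: *C1qb* (1.86), *C1qc* (1.52), *C1qa* (1.35) and *Cd163* (1.10), the first 3 encoding the chains of complement C1q. Over these 8 the median was 0.96, and *Folr2* (-0.80 ± 0.94, SE) and *Timd4* (-0.23 ± 0.79, SE) had negative values that did not pass. Of 7 tested macrophage transcription factors 5 had a positive log2 fold change at 42.4 mg/kg, with a median of 0.13. By edgeR 1 of them passed the threshold, as higher than in NT, and 2 had an unadjusted p under 0.05. All 8 listed summed to 206 to 350.0 CPM at that dose and 266 to 329 CPM in NT.

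Relative to these markers *Stab1* at 42.4 mg/kg lay within the NT range (2.36 to 2.73 against 2.12 to 3.50). The log2 CPM of *Stab1* minus the mean log2 CPM of the macrophage markers was 2.52 ± 0.19 at 42.4 mg/kg (SD, n = 3) and 2.72 ± 0.45 in NT (SD, n = 8). That difference was 2.72 ± 0.66 at 5.3 mg/kg, 3.01 ± 0.98 at 21.2 mg/kg, 3.34 ± 0.44 after Brush, 3.18 ± 0.15 after pacDNA-Scr, 2.57 ± 0.64 after free L9 and 3.36 ± 0.37 in WT (SD). Against the 10 endothelial markers, of which 0 passed at 42.4 mg/kg (2 at an unadjusted p under 0.05; median log2 fold change -0.11), *Stab1* was 0.83 ± 0.31 at 42.4 mg/kg and -0.23 ± 0.36 in NT. All 3 values at 42.4 mg/kg (0.48 to 1.09) lay above all 8 of NT (-1.06 to 0.07). *Lrp1* minus the macrophage markers was 4.85 ± 0.14 at 42.4 mg/kg and 5.35 ± 0.57 in NT. *Scarb1* gave 1.78 ± 0.29 and 3.06 ± 0.59, and *Colec12* 1.37 ± 0.34 and 2.19 ± 0.37. The part of these markers in the *Stab1* result was not tested.

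**Figure D3:**
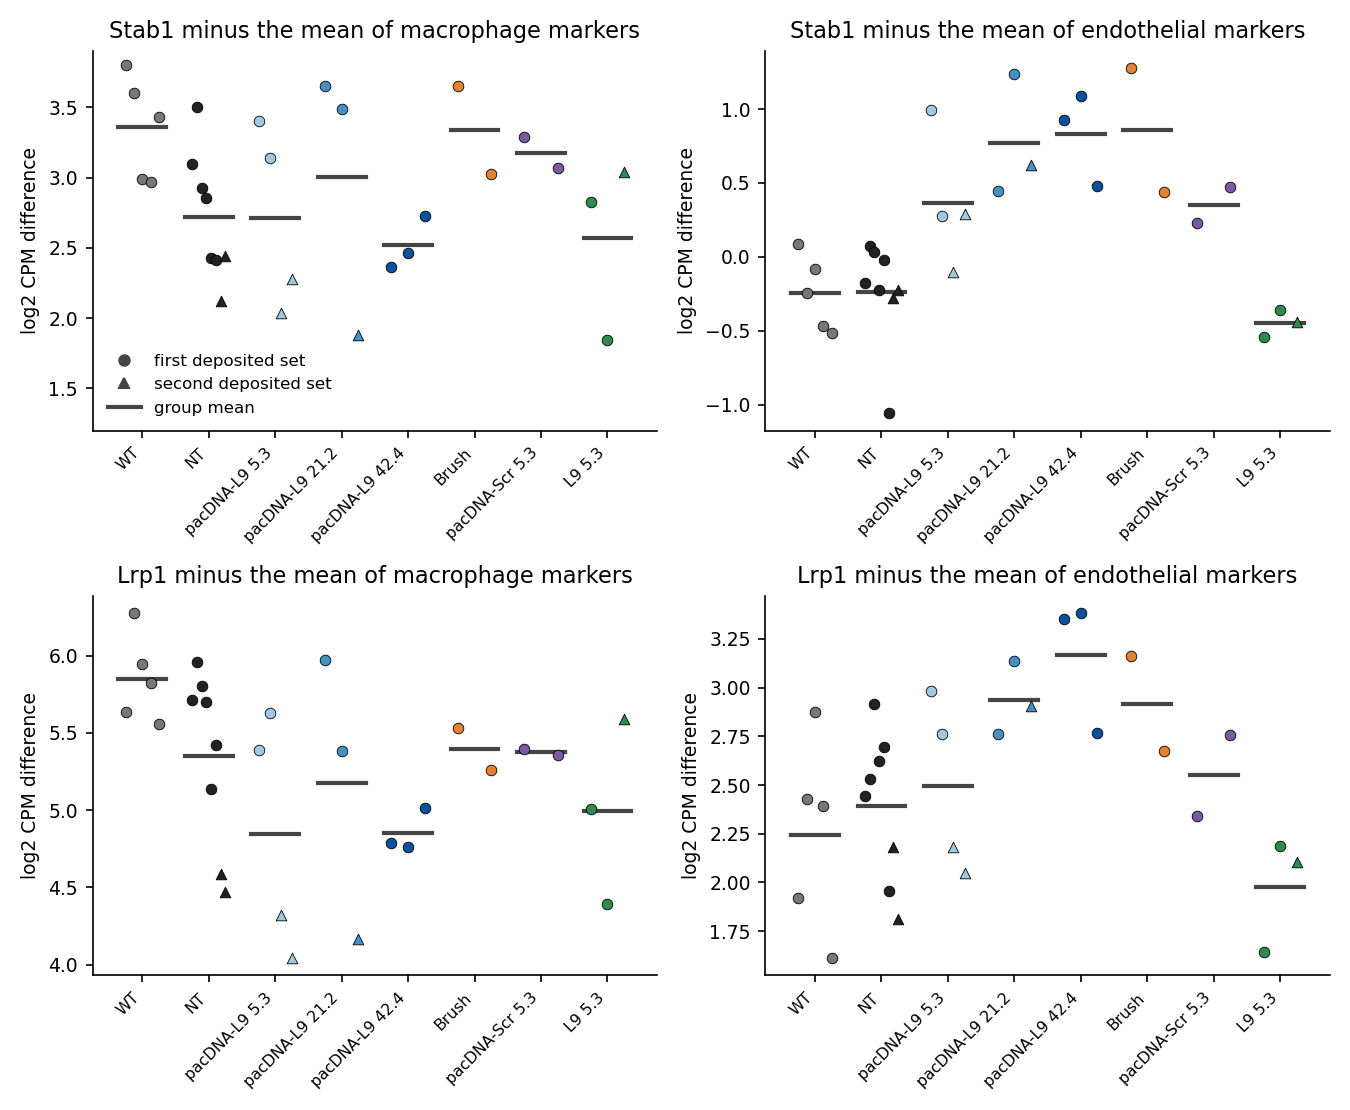
Log2 CPM of *Stab1* (top) and *Lrp1* (bottom) minus the mean log2 CPM of the macrophage markers (left) or the endothelial markers (right) in each library, with circles for the first deposited set, triangles for the second and bars for group means. At 42.4 mg/kg *Stab1* lay within the NT range relative to macrophage markers and above it relative to endothelial markers.

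*Msr1*, the class A macrophage scavenger receptor that binds modified LDL and polyanions, was low in every group, from 0 to 42 counts a library. The 8 NT libraries ranged from 0.170 to 0.650 CPM around a median of 0.381, and the 5 WT libraries from 0.250 to 0.562 CPM. The highest values were 1.80 CPM in the second-set library at 21.2 mg/kg and 1.22 CPM in a library at 42.4 mg/kg. At 21.2 mg/kg the libraries stood at 0.444, 0.815 and 1.80 CPM, a log2 fold change against NT of 1.40 ± 0.62 (SE; adjusted p = 1, edgeR). At 42.4 mg/kg they stood at 1.22, 0.768 and 0.542 CPM, a log2 fold change of 1.12 ± 0.62 (adjusted p = 0.425, edgeR). Neither passed the threshold, and the ranges overlapped that of NT.

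After free L9, replicates A and B had 0 *Msr1* counts, which allows up to 0.151 and 0.168 CPM, and replicate C had 4 counts (0.358 CPM). The log2 fold change against NT was -1.85 ± 0.81 (SE; adjusted p = 0.479, edgeR). *Msr1* was called in this comparison only in the first set alone or without replicate C, where both free L9 libraries are at 0 and no fold is given. Brush libraries stood at 0.799 and 0.694 CPM, both above every NT library, and pacDNA-Scr libraries at 0.410 and 0.986 CPM.

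*Stab2* encodes stabilin-2, the receptor by which liver sinusoidal endothelium clears hyaluronan and phosphorothioate oligonucleotides. In muscle it stood between 0 and 2.48 CPM. At 42.4 mg/kg the libraries stood at 1.22, 2.48 and 1.01 CPM, against an NT median of 0.640 CPM (lowest 0.341, highest 1.44), and the log2 fold change was 1.07 ± 0.63 (SE; adjusted p = 0.437, edgeR). All 3 lay above the 4 libraries at 5.3 mg/kg, which ranged from 0.275 to 0.907 CPM, with a log2 fold change of 1.27 ± 0.75 (SE; adjusted p = 0.385, edgeR). Neither difference passed the threshold. WT libraries had a median of 0.730 CPM and a highest value of 1.03, and those at 21.2 mg/kg ranged from 0.515 to 1.17, Brush from 0.400 to 0.842, pacDNA-Scr from 0.317 to 1.11 and free L9 from 0 to 1.07 CPM.

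*Scarb1*, which encodes the HDL receptor SR-BI, was the member nearest to the threshold between the untreated genotypes. WT mice stood at 40.2, 28.0, 21.3, 23.0 and 26.7 CPM, and NT mice ranged from 12.3 to 25.7 CPM around a median of 15.5, with overlap. The means were 27.9 ± 7.43 (SD, n = 5) and 17.6 ± 4.98 CPM (SD, n = 8), and the log2 fold change of NT against WT was -0.66 ± 0.25 (SE; adjusted p = 0.143, edgeR). In a fit of these 2 groups alone the adjusted p was 0.0466, with 9.26% of all genes called. Summed over 10 genes, the endothelial markers stood at 294 to 500 CPM in WT and 217 to 347 CPM in NT. All 10 were lower in NT, with a median log2 fold change of -0.44 and none past the threshold, and their part in the *Scarb1* difference was not tested.

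Every treated group overlapped NT for *Scarb1*. The libraries ranged from 13.7 to 37.6 CPM at 5.3, from 11.7 to 19.9 at 21.2 and from 15.5 to 18.3 CPM at 42.4 mg/kg, where the log2 fold change was -0.07 ± 0.30 (SE). Brush stood at 18.2 and 20.9 CPM and pacDNA-Scr at 16.5 and 20.8 CPM. Free L9 replicate B was lowest of all libraries at 6.40 CPM, beside 17.8 and 19.9 CPM in the other two. The comparison with NT in which *Scarb1* came nearest to the threshold was free L9, at -0.27 ± 0.31 (SE; adjusted p = 0.840, edgeR), and without replicate B it was 0.07.

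*Colec12* encodes a collectin scavenger receptor of vessels and stroma. Its group means ran from 7.65 ± 2.37 CPM in WT (SD, n = 5) and 9.72 ± 2.95 in NT (SD, n = 8) to 12.6 ± 1.13 at 42.4 mg/kg (SD, n = 3) and 12.9 ± 2.14 after Brush (SD, n = 2). The groups at 5.3 mg/kg (11.3 ± 1.74, SD, n = 4), at 21.2 mg/kg (12.2 ± 3.78, SD, n = 3), pacDNA-Scr (12.1 ± 6.45, SD, n = 2) and free L9 (10.5 ± 6.32 CPM, SD, n = 3) lay between. All groups overlapped NT. Among treated groups against NT it came nearest to the threshold at 42.4 mg/kg, with a log2 fold change of 0.37 ± 0.30 (SE; adjusted p = 0.608, edgeR). NT against WT was nearer, at 0.34 ± 0.26 (SE; adjusted p = 0.487, edgeR), and did not pass either.

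*Clec7a* encodes dectin-1, a beta-glucan receptor of myeloid cells. It had 0 to 13 counts a library. Group means ran from 0.117 CPM after pacDNA-Scr and 0.140 after free L9, through 0.225 in WT, 0.246 at 5.3 mg/kg, 0.256 in NT, 0.262 at 42.4 mg/kg and 0.348 after Brush, to 0.384 CPM at 21.2 mg/kg, with SDs of 0.0494 to 0.212. At this depth no difference was detectable, and the log2 fold change nearest to the threshold against NT, that of free L9, was -0.91 ± 0.91 (SE; adjusted p = 0.802, edgeR).

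*Marco*, a class A receptor of splenic and lung macrophages, had 1 count in each of the 2 Brush libraries and in 4 others (1 each in WT, NT, 21.2 and 42.4 mg/kg). *Cd5l* encodes a secreted macrophage protein with scavenger receptor domains, not itself a receptor. It had 1 count over the 8 NT libraries, 3 over 5 WT, 4 over 2 Brush, 4 over 2 pacDNA-Scr, 4 over 3 libraries at 42.4, 4 over 3 at 21.2 and 4 over 4 at 5.3 mg/kg, and none over 3 free L9. In 1 library, at 42.4 mg/kg, *Cd5l* had 4 counts, and every other value of either gene is at or under 3 counts.

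**Figure D4:**
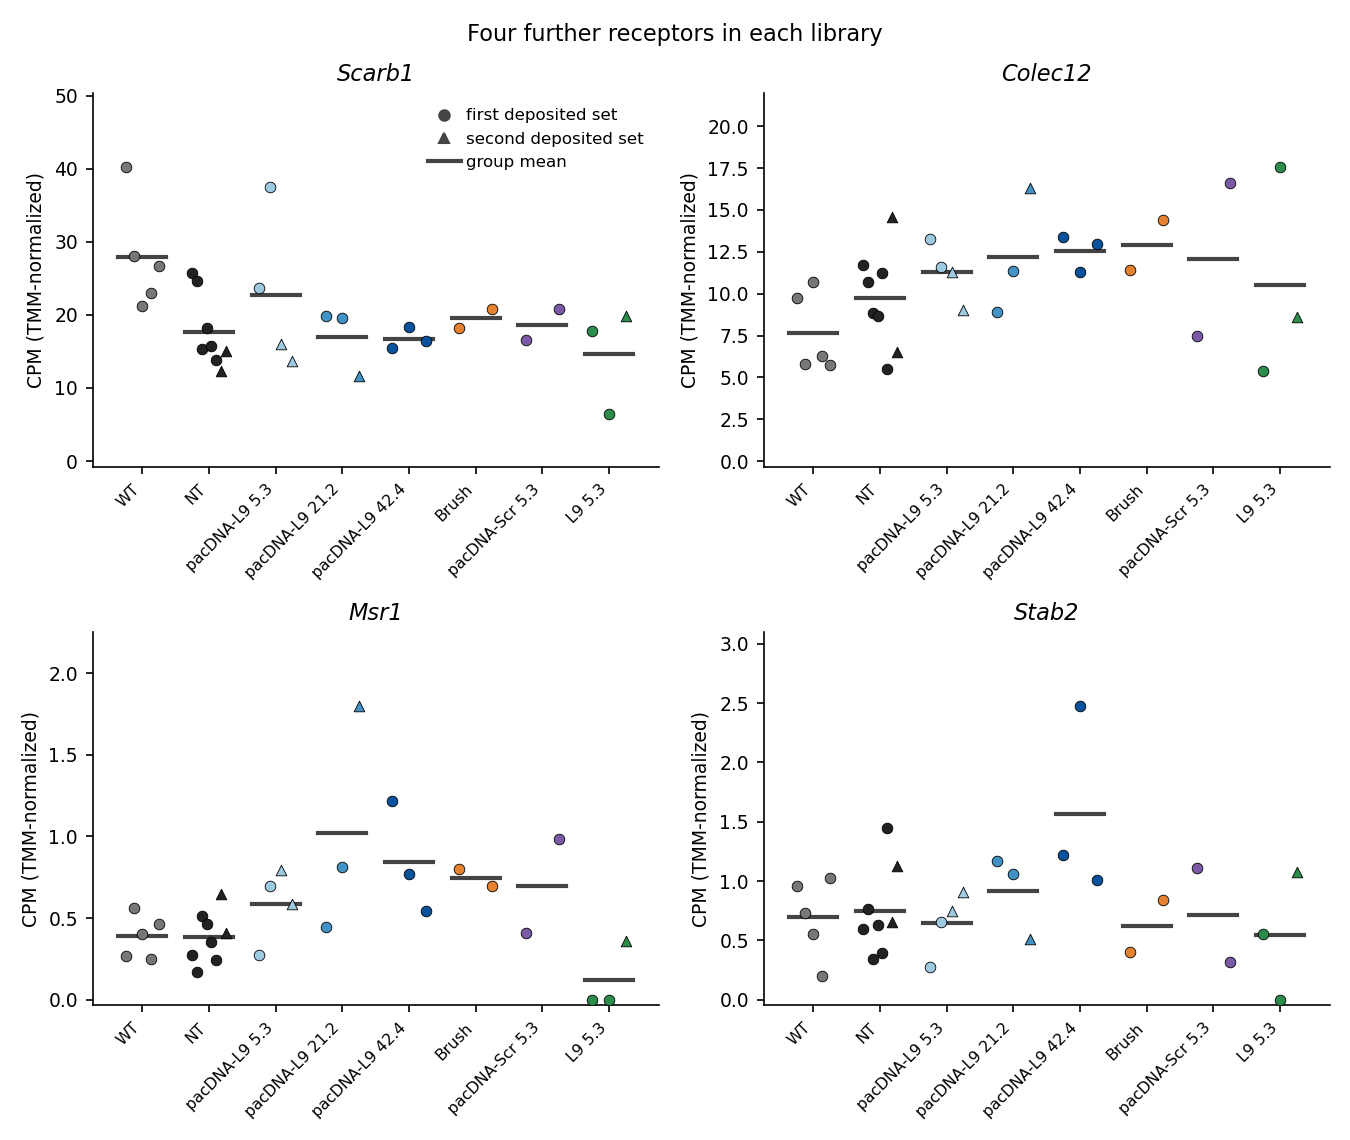
*Scarb1*, *Colec12*, *Msr1* and *Stab2* in CPM in each library by group, with circles for the first deposited set, triangles for the second and a bar for the group mean. Treated and NT libraries overlapped for *Scarb1* and *Colec12*, and *Msr1* was at 0 in 2 of the 3 free L9 libraries.

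Across the members the comparisons with NT, which share the same 8 NT mice, gave few calls. At 5.3 mg/kg 0 of 7 members were called by edgeR and 0 by DESeq2, with 1 at an unadjusted p under 0.05 and 0% of all genes called. At 21.2 mg/kg 0 of 7 were called by either tool, with 2 at an unadjusted p under 0.05, where edgeR called 0.0514% of all genes. For free L9 0 of 7 were called by either tool, with 1 under 0.05, and edgeR called 0.126% of all genes. For Brush edgeR called 0 of 7 and 0% of all genes, with 2 members under 0.05, and DESeq2 called *Stab1*. For pacDNA-Scr 0 of 7 were called by either tool, with 1 under 0.05, and edgeR called 0% of all genes. These shares of all genes are at the adjusted threshold. At an unadjusted p under 0.05 edgeR had 250 of 17518 genes at 5.3 mg/kg and 290 at 21.2 mg/kg. For free L9 it had 1641, for Brush 217 and for pacDNA-Scr 182.

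The signs of the members' fold changes against NT are set side by side as a description. At 42.4 mg/kg 6 of 7 tested members had a positive log2 fold change, with a median of 0.72, beside a median over all genes of -0.06. At 21.2 mg/kg and after Brush 6 of 7 were positive, with medians of 0.50 and 0.43, beside 0.01 and -0.04 over all genes. At 5.3 mg/kg and after pacDNA-Scr 5 of 7 were positive, with medians of 0.22 in both, beside 0.03 and -0.03 over all genes. After free L9 1 of 7 was positive, *Colec12*, with a median of -0.36, beside -0.0016 over all genes. The signs differed between the deposited sets for all but *Msr1*: in the first set the free L9 mean was below the NT mean for every one of the 7 but *Colec12*, whereas the second-set free L9 library stood above the NT mean of its set for *Stab1* (ratio 1.24), *Stab2* (1.21), *Scarb1* (1.45), *Lrp1* (89.2 against 59.5 CPM) and *Clec7a* (1.21) and below it for *Colec12* (0.814) and *Msr1* (0.675). That free L9 library, unlike the NT libraries of its set, lists mitochondrial counts. These are counts of signs among genes that mostly missed the threshold, and the share of all genes with a positive value was not counted. *Stab1*, *Lrp1* and *Msr1* also followed one another over the first-set libraries (Pearson r = 0.61 to 0.82). The signs are therefore not 7 separate observations.

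**Figure D5:**
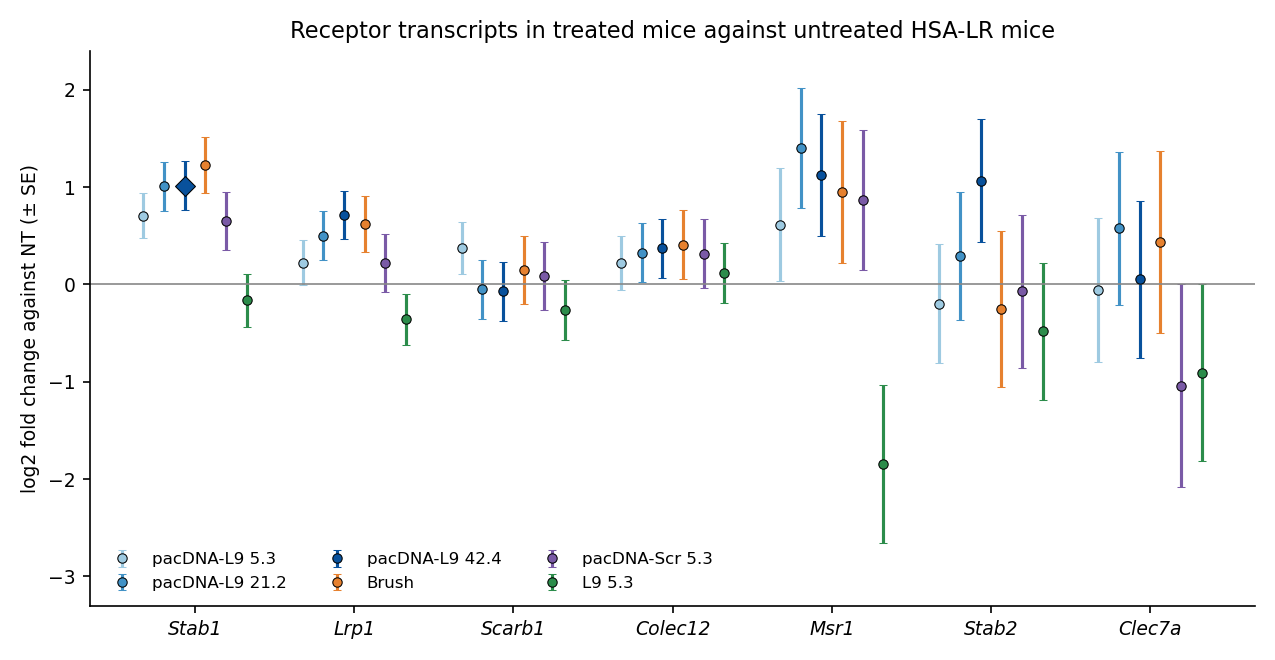
Log2 fold change against NT ± SE for the 7 members tested in each treated group, with a large diamond for the 1 value past the threshold, *Stab1* at 42.4 mg/kg. *Stab1* was above 0 in all 5 groups given the polymer and at -0.16 after free L9, over both deposited sets.

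Between NT and WT, 0 of 7 members were called by edgeR or DESeq2, with 1 (*Scarb1*) at an unadjusted p under 0.05, although edgeR called 4.97% of all genes (3.44% higher and 1.54% lower in NT). Of all 17518 genes, 3771 had an unadjusted p under 0.05 by edgeR in this comparison. *Stab1* was at -0.40 ± 0.22 and *Lrp1* at -0.24 ± 0.22 on the log2 scale (SE; adjusted p = 0.298 and 0.561, edgeR).

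Conjugated and free L9 were compared at the matched dose of 5.3 mg/kg. All 7 members had higher fitted levels with pacDNA-L9, with a median log2 fold change of 0.64 beside 0.06 over all genes. By edgeR or DESeq2 0 were called, where edgeR called 0.0114% of all genes. By edgeR 2 members had an unadjusted p under 0.05, as did 1409 of all 17518 genes. *Stab1* differed by 0.87 ± 0.31 (SE; adjusted p = 0.438, edgeR), *Msr1* by 2.46 ± 0.87 (adjusted p = 0.442) and *Lrp1* by 0.58 ± 0.30 (adjusted p = 0.640). In the first set alone, with 2 mice a group, these 3 were called where 0.916% of all genes were, *Stab1* at 1.43 (adjusted p = 0.0449) and *Lrp1* at 1.28 (adjusted p = 0.0181). *Msr1* is at 0 in both free L9 libraries of that set. Both are named by group and running number, whereas no pacDNA-L9 library at 5.3 mg/kg is. Naming style and treatment cannot be told apart there. In the second set the 1 free L9 library stood at 15.2 CPM for *Stab1* and 89.2 CPM for *Lrp1*, between and above the 2 libraries at 5.3 mg/kg.

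Active and scrambled oligonucleotides on the same polymer were also compared at 5.3 mg/kg. Of 7 members 0 were called by edgeR or DESeq2, none at an unadjusted p under 0.05, with 0% of all genes called by edgeR. Of all 17518 genes, 352 had an unadjusted p under 0.05. *Stab1* differed by a log2 fold change of 0.05 ± 0.34 (SE), with a 95% interval of the fold from 0.654 to 1.65. *Lrp1* differed by -0.0011 ± 0.33, with an interval from 0.638 to 1.56. Both intervals include no change and changes in either direction.

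From 5.3 to 42.4 mg/kg of pacDNA-L9, 0 of 7 members were called by edgeR or DESeq2 and none had an unadjusted p under 0.05, although edgeR called 1.15% of all genes (0.828% higher and 0.32% lower). Of all 17518 genes, 2735 had an unadjusted p under 0.05. *Stab1* differed by 0.31 ± 0.30 and *Lrp1* by 0.49 ± 0.29 (log2 fold change ± SE), with 95% intervals of the fold from 0.825 to 1.85 and from 0.950 to 2.08. In the first set alone the *Stab1* difference was -0.10.

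Other receptors of the same kinds were read from lists that were likewise chosen with earlier results known. Of 13 tested scavenger receptors outside the 9, 3 rose at 42.4 mg/kg against NT and 0 fell, where 1.92% of all genes rose and 0.651% fell, with a list median of 0.38 on the log2 scale. They were *Cd68*, *Scara5*, a ferritin receptor of stromal cells (11.6 ± 2.63 to 28.0 ± 5.36 CPM, log2 fold change 1.27, adjusted p = 0.000660, edgeR), and *Cd163*, the hemoglobin-haptoglobin receptor (8.01 ± 1.52 to 17.1 ± 5.34 CPM, adjusted p = 0.0278). *Cd68* and *Cd163* are the same genes already counted above among the macrophage and resident macrophage markers. *Scara5* was also higher than at 5.3 mg/kg (10.9 ± 1.81 CPM; log2 fold change 1.36, adjusted p = 0.00488, edgeR). Of 12 tested members of the LDL receptor family beside *Lrp1*, 1 fell and 0 rose, with a median of 0.07. It was *Lrp4*, the agrin co-receptor of the neuromuscular junction, which fell from 18.7 ± 3.73 to 9.70 ± 1.51 CPM (adjusted p = 0.0144, edgeR).

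In the lists that follow, at 42.4 mg/kg against NT, 1.92% of all genes rose and 0.651% fell by edgeR. Of all 17518 genes, 2294 had an unadjusted p under 0.05. Of 18 tested myeloid C-type lectins, relatives of *Clec7a*, 1 rose at 42.4 mg/kg: *Clec4d*, a mycobacterial glycolipid receptor, from 0.0510 ± 0.107, under the limit that 3 counts set, to 1.42 ± 0.523 CPM (adjusted p = 0.00776, edgeR). Of 11 genes listed for dectin-1 and other myeloid signalling 2 rose, *Tyrobp*, a signalling adaptor not particular to dectin-1 (log2 fold change 1.77), and *Prkcd*, a protein kinase C (1.79). *Clec7a* itself had 0.262 CPM at 42.4 mg/kg and 0.256 CPM in NT. None of the 26 genes of the endocytosis machinery (clathrin, adaptors, caveolins, early Rab GTPases) was called by edgeR, with 1 at an unadjusted p under 0.05 and a median of 0.00. None of the 6 tested other receptors named for oligonucleotide uptake was called, with 4 at an unadjusted p under 0.05 and a median of 0.44.

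Between NT and WT, where 3.44% of all genes rose and 1.54% fell by edgeR, the lists gave other genes. *Cd68* was the 1 gene called of 11 tested macrophage markers and of 13 tested other scavenger receptors. It rose in NT from 1.87 ± 0.594 to 5.33 ± 1.46 CPM (log2 fold change 1.51, adjusted p = 0.002245, edgeR). *Myh1*, a fast myosin and the 1 gene called of 8 muscle fibre markers, rose too (adjusted p = 0.00941, edgeR). Of 12 tested members of the LDL receptor family beside *Lrp1*, *Lrp11* (0.79) and *Lrp3* (0.64) rose and *Sorl1*, a sorting receptor, fell (-0.46). *Lrp1* itself did not pass. At 21.2 mg/kg against NT edgeR called 0.0514% of all genes. Past the threshold in the lists were *Lyz2* (1.72) and *Cd68* (adjusted p = 0.0426, edgeR), 2 of 11 tested macrophage markers.

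Markers of other cells gave no call at 42.4 mg/kg. By edgeR 0 of 7 fibroblast, 0 of 4 tested leukocyte, 0 of 5 adipocyte, 0 of 5 blood and 0 of 8 muscle fibre markers passed, with 1, 1, 0, 0 and 0 of them at an unadjusted p under 0.05. Over all genes 2294 of 17518 were under 0.05 unadjusted. None of the 5 liver markers passed the filter on low counts.

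The genes whose log2 CPM followed each member most closely were listed over the 24 libraries of the first set, in which group differences, depth and RNA composition are shared by all genes. For *Stab1* these were *Lilrb4b* (Pearson r = 0.86), *Myo1f* (0.85) and *Slc37a2* (0.84), and for *Lrp1* *Adgre1*, the F4/80 antigen of macrophages (0.89), *Slit3* (0.86) and *P2rx7* (0.85). *Msr1* was followed by *Adgre1* (0.81), *Lmx1b* (0.80) and *B930094E09Rik* (0.78), *Colec12* by *Col14a1* (0.88), *Itgbl1* (0.87) and *Scara3* (0.86), and *Scarb1* by *Ttyh3* (0.91), *Myo1c* (0.90) and *Ppm1f* (0.90). The rarer *Stab2* was followed by *Fscn2* (0.85), *Mlycd* (0.83) and *Zbtb46* (0.83) and *Clec7a* by *Ntn1* (0.82), *Ifit3b* (0.79) and *Gpr34* (0.75). For *Stab1* and *Lrp1* with each other r was 0.82 (Spearman 0.83), a description over libraries that include the treatment groups.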

How the data were processed

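Poly(A)-selected quadriceps RNA of 30 mice was sequenced as paired reads. Reads were trimmed and aligned to GRCm39 by the authors (the submitters' processing notes name HISAT2 2.0.5), who deposited the table of raw gene counts used here. Counting options, strand setting and annotation release are not given in the sources used here. All per-sample columns of the count table were used. Of 56748 genes, 56010 matched GENCODE vM39, which gave positions and exon lengths. One WT column carries no number and was placed in its group by name.

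Groups came from the labels. The p-values measure the spread between mice of a group. Counts were fitted with edgeR 4.0.16 in R 4.3.3 (filterByExpr, TMM, robust quasi-likelihood, 1 coefficient for each of 8 groups, all 30 libraries), 17518 genes were tested, and p-values were adjusted over all of them (Benjamini-Hochberg, threshold 0.05) in each of 10 comparisons. An SE is the log2 fold change divided by the square root of F, and a 95% interval spans 1.96 SE to each side. The study used DESeq2, run here as an alternative (1.42.0). The fit was first tested on simulated data. Log2 CPM used a prior count of 2. Precision is limited by groups of 2 to 4 treated mice, and counts of 0 allow up to 3 counts.

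The members and the 16 gene lists were chosen with earlier results of these data known. The value of 1 gene of these lists is not reported here. Named are all 9 members, up to 4 called genes of each list with the largest fold change, and the 3 genes most like each member. Alternatives were other normalizations and filters, the first deposited set alone, the set, sex (read from the counts) or naming style as covariate, no robust estimation, the compared groups alone, DESeq2, each mouse left out, and a replicate block. After seeing the data, a fit without the 5 libraries listing no mitochondrial counts was added. For pacDNA-L9 and free L9 at 5.3 mg/kg, the deviations of libraries with the same letter correlated by 0.365, 0.228 and 0.457. The letters were used as a block in an alternative fit only. No label links mice by letter, and correlations taken from the same counts cannot show that the mice are paired. Letter C is the second deposited set in both groups. Motifs were searched on both strands of RefSeq promoters (GRCm38.p6).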

Additional observations from a re-analysis of the deposited data

Results flagged for a closer look

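Of 26 pairs of a member and a group of 4 or more libraries, 3 held a library far from the others, and each was a single read in a group otherwise at 0. *Marco* stood at 0.0530 CPM in WT replicate 1 and at 0.0420 CPM in NT replicate 4, and *Cd5l* at 0.0569 CPM in NT replicate 3, each from 1 count. The nominal rate of about 1 group in 20 marked by chance does not apply here. A group with a single library above 0 is always marked by this rule. These values lie under the limit that 3 counts set.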

How the results depend on the processing

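Each result was recomputed under the alternatives named above. The call of *Stab1* at 42.4 mg/kg against NT held in 19 of 23 alternatives, with a log2 fold change of 0.92 to 1.35 and an adjusted p of 0.00501 to 0.213. With library size alone 0 members were called, and with a mouse left out 0 to 1, none without any of the 3 mice at 42.4 mg/kg. For free L9 against NT the first set alone gave 2 called members (*Msr1* and *Lrp1*) and leaving out mice 0 to 1 (*Msr1*, without free L9 replicate C). For pacDNA-L9 against free L9 the first set alone gave 3 (*Msr1*, *Stab1* and *Lrp1*) and leaving out mice 0 to 1 (*Msr1*, without free L9 replicate C). For NT against WT the compared groups alone gave 1 (*Scarb1*), and for Brush against NT DESeq2 gave 1 (*Stab1*). With the letters as a replicate block the fit called 0 members for pacDNA-L9 against free L9, as without the block. For NT against WT, where same-numbered mice correlated by 0.19, -0.0235, 0.131 and 0.242 and share only a number, the replicate block also called 0. The *Lrp1* difference between pacDNA-L9 and pacDNA-Scr was near 0 and turned positive with DESeq2 size factors (0.01377), library size alone (0.05571), no filter (0.0005422), a filter of at least 10 counts in every library (0.01817), DESeq2 (0.01373), the set as covariate (0.1934), the first set alone (0.4648) and without the 5 libraries (0.4524), and leaving out mice gave -0.1958 to 0.1909. That of *Stab1* was -0.154 with naming style as covariate and -0.2291 to 0.2262 with mice left out. *Stab1* at 42.4 against 5.3 mg/kg was -0.09979 in the first set alone and -0.08059 without the 5 libraries. For free L9 against NT, *Stab1* was 0.03426 with naming style as covariate and *Scarb1* -0.5423 to 0.07234 with mice left out. The cause was not tested in any of these. Counts over all genes moved by over 1.5 times in several comparisons. DESeq2 gave 1370 for 42.4 mg/kg against NT (522 higher and 848 lower, against 336 and 114 by edgeR), 1973 for NT against WT (edgeR 871), 1213 for 42.4 against 5.3 mg/kg (edgeR 201), 320 for Brush, 312 for pacDNA-Scr and 1 for 5.3 mg/kg against NT (edgeR 0 in each), 16 for 21.2 mg/kg (edgeR 9), 46 for free L9 (edgeR 22), 64 for pacDNA-L9 against free L9 (edgeR 2) and 330 against pacDNA-Scr (edgeR 0). For 42.4 mg/kg against NT it fell from 450 to 132 with naming style as covariate and to 63 without replicate B. For free L9 it rose to 354 in the first set alone and 314 without replicate C, and for pacDNA-L9 against free L9 to 145 and 212. Over all alternatives run the counts spanned 63 to 1370 for 42.4 mg/kg and 0 to 397 for free L9 against NT, 631 to 1973 for NT against WT, 0 to 16 for 21.2 mg/kg against NT, 0 to 212 for pacDNA-L9 against free L9 and 18 to 1213 for 42.4 against 5.3 mg/kg.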
